A study of Equus caballus with 32 samples.

Results

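Of the 16 horses sequenced before and during training, 6 were kept here because the level of their ciliated cell genes differed least between the 2 samplings. For each horse the mean log2 value of 6 cilia genes (FOXJ1, DNAH5, DNAH9, DNAI1, RSPH1 and TEKT1) was taken at rest (T0) and in training (T1), and the 6 horses with the smallest absolute T1 minus T0 difference were retained. They were horses 1, 8, 9, 10, 13 and 16, which gave 12 of the 32 libraries, 1 per horse and time point. The horses were therefore chosen by measured values, and the p-values below take no account of that choice.

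All horses were male Thoroughbreds from 1 racing yard and 1 trainer, and the RNA came from cells of a tracheal wash (TW). T0 was sampled after about 2 months at rest and T1 about 2.5 months into an intense training program. Each horse served as its own control. By the study's account the horses were mostly at pasture at T0 and housed at T1, so training, housing and time between samplings cannot be told apart. Among the 6 horses, the study placed horse 10 in its high neutrophil group by cytology and counted horses 9, 10 and 16 as unaffected by exercise-induced pulmonary haemorrhage, with horses 1, 8 and 13 affected.

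A tracheal wash collects the free cells of the windpipe, mainly macrophages, neutrophils and lymphocytes, together with ciliated and secretory epithelial cells shed from its wall. Ciliated cells move mucus with motile cilia, whose beating is powered by axonemal dyneins, and FOXJ1 is the transcription factor that switches on the genes of motile cilia. The number of epithelial cells in a wash varies between samplings, and cilia genes vary with it. In bulk RNA of this kind, fewer cells of a type and less RNA per cell cannot be told apart.

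The cilia mean of the 6 horses differed between T1 and T0 by 0.01 log2 units in horse 13, 0.05 in horse 16, -0.17 in horse 10, -0.37 in horse 9, 0.60 in horse 8 and -0.64 in horse 1. Horse 1 was the last one retained, and horse 12, with a difference of -0.99, was the first one left out. The 10 horses left out ranged from -3.15 in horse 3 to 1.93 in horse 2. The spread of the differences (SD) was 0.42 in the 6 horses and 1.83 in the 10. The level itself was not alike in the 6 horses. At T0 it was lowest in horse 13 (9.49) and highest in horse 16 (12.51), and the same 2 horses were lowest (9.50) and highest (12.56) at T1. "Stable" therefore describes the change within a horse and not a common level.

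**Figure D1:**
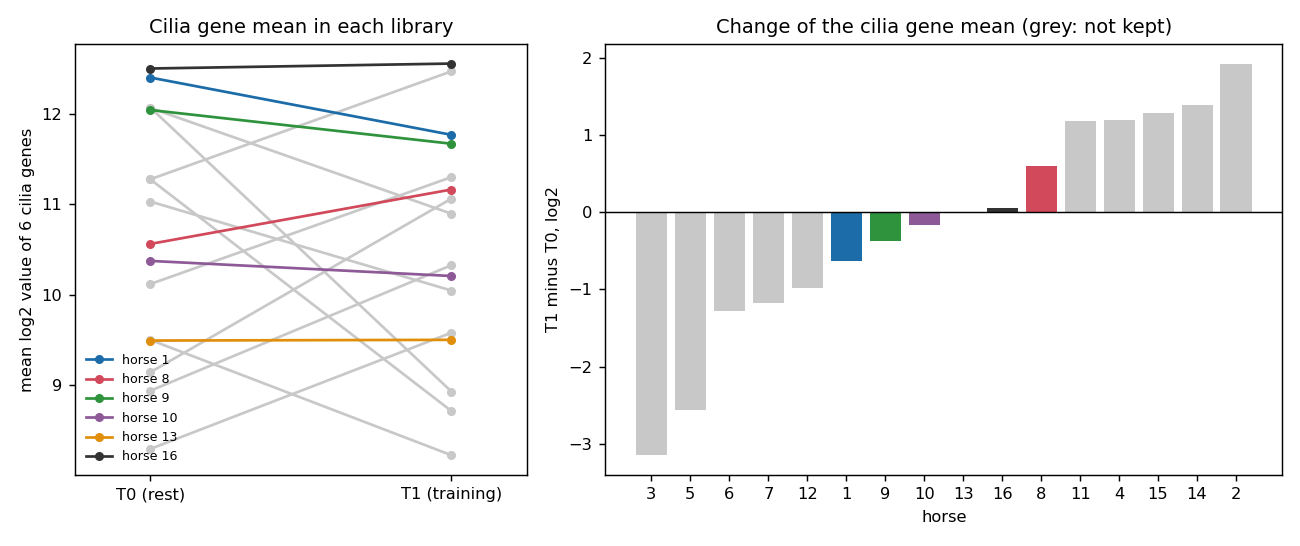
Mean log2 value of 6 cilia genes at T0 and T1 in each horse (left, 1 line per horse) and its T1 minus T0 change in log2 units (right, 1 bar per horse). The 6 coloured horses lie between -0.64 and 0.60, and the 10 grey horses between -3.15 and 1.93.

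The 6 cilia genes did not move together within these horses. FOXJ1 was at a lowest value of 11.02, a median of 12.86 and a highest value of 14.16 at T0, and at 11.08, 12.83 and 14.52 at T1. Its change ran from -1.02 in horse 9 to 0.95 in horse 8, so a cilia mean with little change held larger changes of single genes. DNAH5, an outer arm dynein heavy chain, was at 10.27, 11.98 and 13.40 at T0 and at 10.49, 11.84 and 12.94 at T1. The mean changes of the rule's genes were 0.12 for FOXJ1, -0.30 for DNAH5, -0.38 for DNAH9, 0.04 for DNAI1, -0.18 for RSPH1 and 0.19 for TEKT1. These values chose the horses and carry no test.

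The other motile cilium genes, 47 of which were measured, were close to level on average, with a mean change of -0.10 (SD 0.40, n = 6 horses). Choosing the horses by these 47 genes, or by the median of the rule's genes, retained the same 6 horses. The 47 genes went in both directions, with 30 lower and 17 higher on average (of all genes tested, 46.2% were higher on average). With the rule's genes included, all 8 dynein heavy chain genes were lower on average, from -0.38 (DNAH9) to -0.04 (DNAH3), with a median of -0.30. Of the 45 other cilium genes, 25 were lower and 20 higher, with a median of -0.07. The reason for this split was not tested. The lowest of the 47 was CFAP43, a cilia and flagella associated protein, at -0.78, and the highest was ZMYND10, a dynein assembly factor, at 0.46. For CFAP43 the mean rested on horses 1 (-2.05), 10 (-1.23) and 16 (-1.80), while horses 8, 9 and 13 lay between 0.11 and 0.14.

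The T0 and T1 libraries of horse 1 were the least alike of the 6 pairs, with a correlation of 0.933 across genes and a median absolute change of 0.662 log2 units. The other 5 horses had correlations from 0.967 to 0.992 and median absolute changes from 0.198 to 0.413. Library medians lay between 8.83 and 9.14. The deposited values are log2 values without counts, so the depth of each library is unknown.

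No gene of the 6 horses passed the threshold of 0.05 on the false discovery rate (FDR). Among 14697 genes whose mean log2 value reached 3, limma with the horse as replicate block called 0 (the smallest adjusted p was 0.605). At an unadjusted p under 0.05 there were 954 genes, or 6.49% of those tested. They were mostly lower at T1, with 660 lower (4.49%) and 294 higher (2.00%). This imbalance depended on the scaling: with all libraries shifted to 1 median, 455 were lower and 451 higher. A further description is agreement between horses: 176 genes (1.20%) were higher at T1 in 6 of 6 horses and 362 (2.46%) were lower in 6 of 6. With so few horses, some genes without any change also go the same way in all 6 by chance. The counts were not tested against that chance rate, so neither shows agreement beyond chance. The median change over all genes was -0.03. Because no gene passed, the genes below are described by their values, and a direction in 6 of 6 horses is a description rather than a call.

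The unadjusted count depended on single horses. It was 2430 without horse 9, 358 without horse 16, 374 without horse 10 and 565 without horse 1. The adjusted count was 0 in each of these fits. The 10 horses left out, which share no library with the 6, also gave 0 genes at FDR 0.05 in limma (smallest adjusted p 0.0630), with 2884 of 14602 genes (19.8%) at an unadjusted p under 0.05. The difference between the change in the 6 horses and the change in the 10 was tested for 14643 genes. It passed for 0 (smallest adjusted p 0.9999), and 217 genes (1.48%) had an unadjusted p under 0.05.

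The same question was put to all 16 horses by fitting the change of the cilia mean as a covariate, which gives the training change at a cilia change of 0. This limma fit called 2904 of 14643 genes (19.8%) at FDR 0.05, of which 1521 rose (10.4%) and 1383 fell (9.44%). Without the covariate, the 16 horses gave 930 genes. The median standard error (SE) per gene was 0.195 in the 6 horses, 0.135 in the 16 without the covariate and 0.118 with it. The covariate fit contains the 6 horses, so its values stand beside theirs and are not a second observation. In the 10 other horses alone it called 1355 genes. With the change of the neutrophil marker mean added as a second covariate, 1 gene (PCOLCE2, adjusted p = 0.0402) passed, and 1864 had an unadjusted p under 0.05. The median SE was then 0.149, and the median absolute change over all genes was 0.145, against 0.191 with the cilia covariate alone. Some estimates kept about their size while losing the call, such as MT1B (0.88 with 1 covariate and 0.99 with both). TNF (-0.72 and -0.81) and TOP2A (-0.85 and -0.79) were further cases. Others were smaller, such as TIMP1 (0.92 and 0.54), CYP2S1 (0.66 and 0.32), LCN2 (0.70 and 0.28) and KRT4 (0.70 and 0.23). The mean of the neutrophil markers was itself higher at T1 by 0.49 (SD 0.47) in the 10 horses and by 0.18 (SD 0.48) in the 6. The part of neutrophils in the lost calls was not tested. Leaving out 1 horse moved the count from 1513 (without horse 3) to 3764 (without horse 9), and it was 1590 without horse 14, 1678 without horse 6, 1732 without horse 16 and 1828 without horse 15. Below, "rose" and "fell" refer only to the covariate fit of 16 horses.

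Among the 12 largest increases, the one with the smallest SE was PCOLCE2 (ENSECAG00000020485), which enhances the trimming of procollagen to collagen. In horses 1, 8, 9, 10, 13 and 16 it was at 4.58, 5.73, 5.07, 7.56, 5.35 and 4.06 at T0 and at 5.82, 7.09, 5.90, 8.80, 6.61 and 4.84 at T1. The 2 groups of values overlapped, but each horse was higher at T1, by 0.78 to 1.36. The mean change was 1.12 (SE 0.18, 2.17-fold) in the 6 horses and 1.32 (SE 0.22, 10 of 10 higher) in the 10 others. It rose by 1.24 (SE 0.15) in the covariate fit. It was named by the study from these same samples.

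ADM, which encodes the vasodilator peptide adrenomedullin, was at a lowest value of 8.51, a median of 9.18 and a highest value of 10.50 at T0, and at 9.09, 10.05 and 11.47 at T1. It was higher in each horse, although by only 0.07 in horse 8 against 1.73 in horse 1. The mean was 0.82 (SE 0.20) in the 6 horses, and the gene rose by 0.97 (SE 0.12) in the covariate fit. HSPA6, an inducible HSP70 chaperone, was at 14.19, 14.63 and 15.79 at T0 and at 14.54, 15.55 and 16.34 at T1. It too was higher in each horse, by 0.35 to 1.55, with a mean of 0.81 (SE 0.19). HSPA6 and other HSP70 genes are near-identical in parts, so the share of reads given to each is uncertain.

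The largest mean increase in 6 of 6 horses was that of TMEM238, a transmembrane protein gene, at 1.31 (SE 0.29). It was above 2 log2 units in horses 1 (2.29) and 10 (2.43) and was 0.37 in horse 9. CYP1B1, a cytochrome P450 of the aryl hydrocarbon receptor response, was higher by 0.97 (SE 0.31), with 2.47 in horse 16 and 0.17 in horse 1. ALDH3A1, an aldehyde dehydrogenase, was higher by 0.92 (SE 0.28), and CYP2S1, another cytochrome P450, by 0.73 (SE 0.29). Without horse 1 the mean of CYP2S1 was 0.38, so that 1 pair carried much of it. ALDH3A1 rose by 0.59 and CYP2S1 by 0.66 in the covariate fit, where CYP1B1 did not pass (0.70, adjusted p = 0.0664). The call of ALDH3A1 held in 13 of the 16 fits that left out 1 horse.

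The other increases among the 12 were MT1B, FAIM2, ADGRA2, ISLR2 and CARD10. MT1B, a metallothionein that binds zinc and copper, was higher by 0.91 (SE 0.22) in the 6 horses, with the same mean of 0.91 in the 10 others. Metallothionein genes are close copies of each other, which makes the assignment of its reads uncertain. FAIM2, an inhibitor of Fas-mediated apoptosis, was higher by 0.92, but by only 0.02 in horse 9. ADGRA2, an adhesion G protein-coupled receptor, ISLR2, a leucine-rich repeat membrane protein, and CARD10, a scaffold of NF-kappaB signalling, had means of 0.85, 0.85 and 0.77. For these 3 genes horse 1 was the highest, at 2.71, 2.49 and 2.14, and without it the means were 0.48, 0.52 and 0.49. MT1B, FAIM2, ADGRA2, ISLR2 and CARD10 rose in the covariate fit, by 0.62 to 0.88. With 1 horse left out, the call held in 6 of 16 fits for ADGRA2, in 12 for FAIM2 and in all 16 for the other 3 genes.

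**Figure D2:**
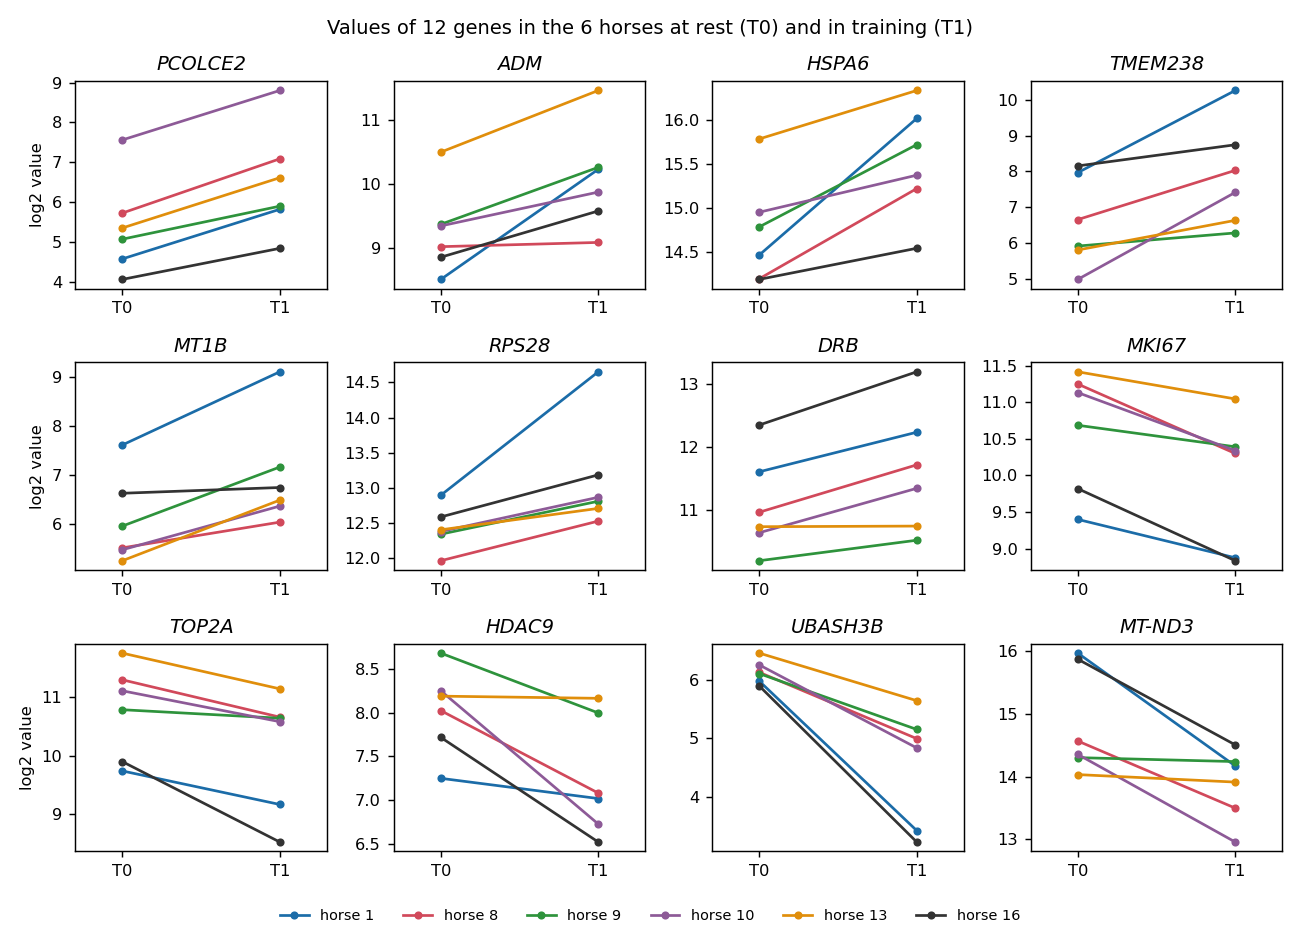
Log2 values of 12 genes at T0 and T1, with 1 coloured line for each of the 6 horses and a separate vertical axis for each gene. Every line slopes upward in the first 7 panels, from PCOLCE2 to DRB, and downward in the last 5, and the T0 and T1 values are fully apart only for UBASH3B.

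Among genes with a symbol, a mean log2 value of at least 5 and a lower value in 6 of 6 horses, the largest decrease was that of UBASH3B (ENSECAG00000018634), a phosphatase that restrains signalling from the T cell receptor. At T0 it was at 5.98, 6.13, 6.11, 6.25, 6.46 and 5.89 in horses 1, 8, 9, 10, 13 and 16, and at T1 at 3.42, 4.99, 5.15, 4.83, 5.64 and 3.22. The highest T1 value lay below the lowest T0 value, and horses 1 (-2.56) and 16 (-2.67) were lowest. The mean change was -1.59 (SE 0.30, 3.02-fold lower). In the 10 other horses it was 0.02 (SE 0.31), with 4 of 10 higher. The difference between the 2 sets of horses had an unadjusted p of 0.00369 and an adjusted p of 0.9999 in limma, so it did not pass, and the covariate fit did not call the gene either (-0.58, adjusted p = 0.138).

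Groups that did not overlap were rare. Of all 14697 genes, 6 had every T1 value below every T0 value (0.0408%) and 1 had every T1 value above (0.00680%). The named ones besides UBASH3B, given here after their values were seen, were CDKN1B and SHISA8. CDKN1B, the cyclin-dependent kinase inhibitor p27, had a mean change of -0.33 (SE 0.15), and SHISA8, a transmembrane protein gene, was higher by 0.77 (SE 0.23).

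Among the 12 largest decreases, POLQ, the DNA polymerase of end joining repair, had a mean change of -0.83 (SE 0.21). ESCO2, which acetylates cohesin in S phase, had one of -0.71 (SE 0.21), and MND1, a recombination factor, one of -0.74 (SE 0.23). KIF11, the kinesin that separates spindle poles, and MKI67, the proliferation marker Ki-67, were at -0.68 and -0.65. All 5 fell in the covariate fit, by 0.48 (MND1) to 1.06 (MKI67) log2 units.

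HDAC9, a class IIa histone deacetylase, was at a lowest value of 7.25, a median of 8.11 and a highest value of 8.68 at T0, and at 6.52, 7.05 and 8.16 at T1. Its change was -1.52 in horse 10 and -0.02 in horse 13, with a mean of -0.77 (SE 0.22). P2RY12, an ADP receptor known from platelets and microglia, was at 8.98, 9.79 and 10.05 at T0 and at 8.08, 8.95 and 9.96 at T1, with a mean of -0.71 (SE 0.17). CIDEB, a lipid droplet protein, and ZNF470, a zinc finger protein, had means of -0.75 and -0.68. TMEM156, a transmembrane protein gene, had a mean of -0.70, with horses 8, 9 and 13 between -0.17 and -0.02. With the covariate, HDAC9 fell by 0.87, P2RY12 fell by 0.62 and CIDEB fell by 0.52, while ZNF470 (adjusted p = 0.0565) and TMEM156 (adjusted p = 0.127) did not pass.

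The mitosis and proliferation list was the only one of 30 lists whose mean was lower at T1 in 6 of 6 horses. For every list that follows, counts at an unadjusted p under 0.05 stand against 2.00% higher and 4.49% lower of all genes. Counts of the covariate fit stand against 10.4% that rose and 9.44% that fell. The lists were chosen with earlier results of these data known, so their counts are a description and not independent evidence. Of the 31 proliferation genes tested, 15 were lower at an unadjusted p under 0.05 and 0 higher, and 9 were lower in 6 of 6 horses. The median change of the list was -0.32, against -0.03 over all genes. The T1 minus T0 difference of the list mean was -0.57 in horse 16, -0.55 in horse 10, -0.43 in horse 8, -0.40 in horse 13, -0.18 in horse 1 and -0.05 in horse 9. In the 10 other horses the median of the list was -0.43, with 3 of 10 horses higher. The covariate fit gave 22 of 31 genes that fell, against 9.44% of all genes, and 0 that rose.

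MKI67 was at a lowest value of 9.40, a median of 10.91 and a highest value of 11.42 at T0, and at 8.84, 10.32 and 11.04 at T1. TOP2A, the DNA topoisomerase of dividing cells, was at 9.74, 10.95 and 11.75 at T0 and at 8.53, 10.61 and 11.14 at T1, with a mean of -0.64 (SE 0.16). For both genes the values of the 2 time points overlapped widely, because horses 1 and 16 were low at both. MCM5, a subunit of the DNA replication helicase that is named here after its values were seen, differed from the list. It was higher by 2.53 in horse 1 and by 0.94 in horse 16, and was at -0.94 in horse 9. MCM2 and MCM3, also named after their values were seen, went the same way by less. They were at 0.20 and 0.01 in horse 1, 0.50 and 0.33 in horse 16, and -0.80 and -0.48 in horse 9. MCM4 was lower in 6 of 6 horses and MCM6 in 4. As to cell types, the macrophage marker list (18 genes) had a mean change of 0.02 (SD 0.20) and the T cell list (19 genes tested) one of -0.06 (SD 0.29). Their part in the proliferation values was not tested.

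The 13 protein genes of mitochondrial DNA encode core subunits of the respiratory chain and of ATP synthase. All 13 were lower on average in the 6 horses. Of these, 8 were lower at an unadjusted p under 0.05, against 4.49% of all genes, and the median change was -0.63. Horses differed widely: the difference of the list mean was -1.33 in horse 16, -1.22 in horse 1, -0.99 in horse 10, -0.38 in horse 8, 0.01 in horse 13 and 0.13 in horse 9. At T0 the list mean stood at 16.99 in horse 1 and 17.06 in horse 16, and at 15.28 to 15.60 in the other 4 horses. At T1 the 6 horses lay between 14.61 and 15.76. The lower mean thus came mostly from horses 1, 10 and 16, and 2 of these started from high values at rest.

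MT-ND3, a subunit of complex I, was the only one of the 13 that was lower in 6 of 6 horses. It was at a lowest value of 14.03, a median of 14.46 and a highest value of 15.97 at T0, and at 12.95, 14.04 and 14.51 at T1, with a mean of -0.97 (SE 0.24). Its change in horses 9 (-0.06) and 13 (-0.12) was close to 0. ND1 and MT-ND2, also of complex I, had means of -0.83 (SE 0.23) and -0.78 (SE 0.28). The 10 other horses went the other way on average, with a list median of 0.22 and 5 of 10 horses higher. The 13 genes share the same libraries and mostly moved together within a horse, so they are not independent observations. For 6 of the 13, the difference between the sets of horses had an unadjusted p under 0.05 in limma, against 1.48% of all genes. MT-ND3 was among the 6 (p = 0.00688 in limma), and none passed adjustment. Of the 13 genes, 0 were called in the covariate fit, with MT-ND3 at -0.17 (adjusted p = 0.569).

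**Figure D3:**
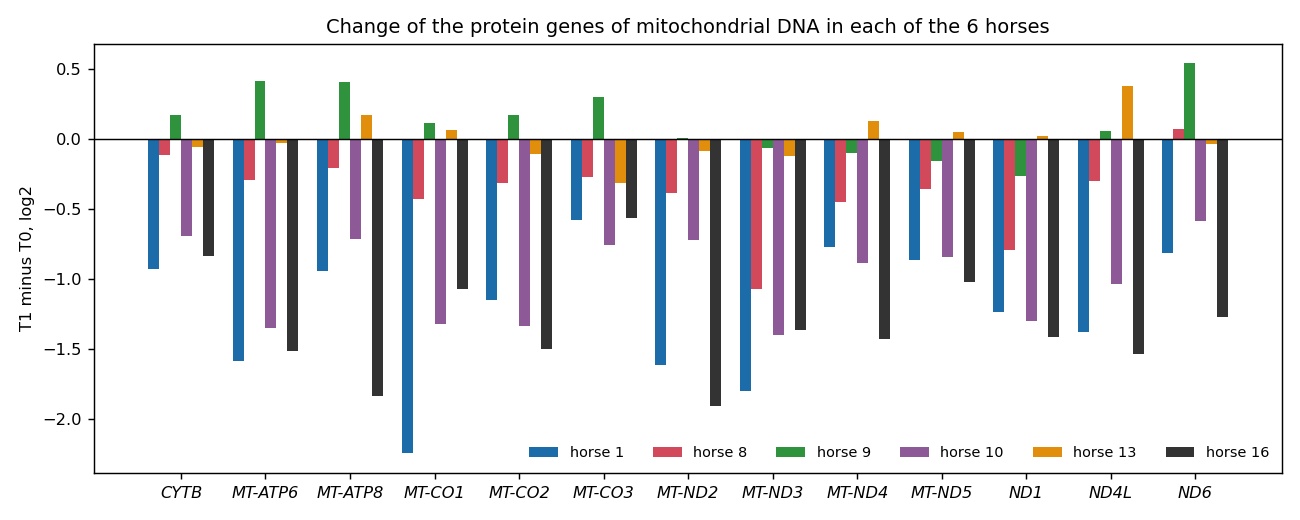
T1 minus T0 change in log2 units of the 13 protein genes of mitochondrial DNA, with 1 bar for each of the 6 horses. Bars of horses 1, 10 and 16 point down for every gene, from -0.56 to -2.25, whereas those of horses 9 and 13 lie between -0.31 and 0.54.

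Of 57 nuclear genes of the respiratory chain, 8 were higher and 1 lower at an unadjusted p under 0.05, the median change was 0.08, and 36 were higher on average. The 3 members of smallest p were higher in each horse, though nearly level in some. COX7A2, a subunit of cytochrome c oxidase, was higher by 0.12 to 0.64 (mean 0.38, SE 0.15), UQCRQ, of complex III, by 0.01 to 0.72 (mean 0.37, SE 0.14), and COX5A by 0.07 to 0.56 (mean 0.32, SE 0.12). There were 26 of the 57 that rose, against 10.4% of all genes, and 0 that fell in the covariate fit. The 10 other horses had a median of 0.37. For 5 of the 57, the difference between the sets of horses had an unadjusted p under 0.05 in limma, against 1.48% of all genes.

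Cytosolic ribosomal protein genes, whose products build the translating ribosome, gave 6 genes higher and 0 lower of 55 at an unadjusted p under 0.05. All 6 were higher in 6 of 6 horses, and the list median was 0.22. RPS28 was at a lowest value of 11.96, a median of 12.39 and a highest value of 12.89 at T0, and at 12.53, 12.84 and 14.65 at T1. The highest value was that of horse 1, whose change of 1.76 stood apart from 0.30 to 0.60 in the other 5. The mean of RPS28 was 0.70 (SE 0.19), or 0.48 without horse 1. RPS9 (0.55, SE 0.19) and RPS21 (0.34, SE 0.13) were also higher in each horse. With the covariate, 33 of 55 rose, against 10.4% of all genes, and 0 fell. Ribosomal protein genes have many processed pseudogenes, which can take part of their reads.

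Among stress genes, the heat shock chaperones had 5 of 23 genes higher and 0 lower at an unadjusted p under 0.05, with a median of 0.09. The 5 were HSPA6, HSPA1A, HSPA1L, DNAJB1 and BAG3, all of the HSP70 system. BAG3, a co-chaperone of HSP70, was at a lowest value of 11.45, a median of 11.84 and a highest value of 13.24 at T0, and at 12.07, 12.53 and 13.74 at T1. It was higher by 1.56 in horse 1 and by 0.28 to 0.67 in the others, with a mean of 0.67 (SE 0.17), or 0.49 without horse 1. HSPA1L, an HSP70 family member, was higher by 0.20 to 1.68 (mean 0.71, SE 0.22). In all 16 horses with the covariate, 7 of 23 rose and 0 fell, HSPA6 (0.83), HSPA1L (0.81) and BAG3 (0.65) among them.

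NRF2 and antioxidant genes had a list mean that was higher at T1 in 6 of 6 horses, by 0.04 in horse 9 to 0.29 in horse 8. Of 28 tested, 7 were higher and 1 lower at an unadjusted p under 0.05, and the median was 0.18. MGST3, a microsomal glutathione transferase, was higher in each horse by 0.08 to 0.59 (mean 0.29, SE 0.12). GSTP1, a cytosolic glutathione transferase, had a mean of 0.40 (SE 0.16), and GPX2, an epithelial glutathione peroxidase, one of 0.59 (SE 0.23), each with 5 of 6 horses higher. With the covariate, 13 of 28 rose, against 10.4% of all genes, and 1 fell, with GPX2 at 0.79, GSTP1 at 0.56 and MGST3 at 0.46.

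Genes of heme breakdown and iron handling had 3 of 20 higher and 0 lower at an unadjusted p under 0.05. HMOX1, the enzyme that opens the heme ring, was at a lowest value of 14.76, a median of 15.56 and a highest value of 16.43 at T0, and at 15.31, 16.13 and 17.91 at T1. It was higher by 2.35 in horse 1 and lower in horse 9 (-0.23), with a mean of 0.72 (SE 0.30) that became 0.39 without horse 1. FTL, the ferritin light chain that stores iron, was higher in 6 of 6 horses (mean 0.55, SE 0.24), but by only 0.05 in horse 10 and 0.07 in horse 13. BLVRB, a biliverdin reductase, had a mean of 0.45 (SE 0.17). All 3 rose in the covariate fit, BLVRB by 0.63, HMOX1 by 0.74 and FTL by 0.58. Of the horses the study counted as affected by pulmonary haemorrhage, horse 1 was at 2.35 for HMOX1, horse 8 at 0.55 and horse 13 at 0.28. Of the unaffected horses, horse 16 was at 1.13 and horse 9 at -0.23. Without horse 10, the other unaffected horse, the mean of HMOX1 was 0.82. The part of bleeding in these values was not tested.

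The integrated stress response list had 2 of 18 genes higher and 0 lower at an unadjusted p under 0.05, with a median of 0.16. ASNS, asparagine synthetase and a target of ATF4, was higher in each horse by 0.15 to 0.83 (mean 0.42, SE 0.14). PPP1R15A, which restores translation after stress, was higher in each horse too (mean 0.37, SE 0.16), by 0.00 in horse 9 and 0.08 in horse 8. The covariate fit gave 5 of 18 that rose and 0 that fell. ASNS rose by 0.50, and PPP1R15A did not pass (0.29, adjusted p = 0.108).

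In the list of genes stimulated by type I interferon, 7 of 44 were higher and 1 lower at an unadjusted p under 0.05, and the median was 0.21. ISG15, a ubiquitin-like antiviral protein, was at a lowest value of 10.99, a median of 11.49 and a highest value of 11.97 at T0, and at 11.39, 12.40 and 13.46 at T1. It was higher by 0.87 to 2.40 in horses 1, 8, 10 and 16 and close to level in horses 9 (0.05) and 13 (-0.02). The mean was 0.98 (SE 0.28), or 0.70 without horse 1. OASL and CMPK2, both interferon-induced, had means of 0.49 (SE 0.16) and 0.54 (SE 0.22) with a like split of the horses: the 4 horses lay at 0.29 or more for both, and horses 9 and 13 between -0.19 and 0.17. Without horse 1 the mean of CMPK2 was 0.34. The list mean of horse 13 was lower at T1 (-0.14). Of the 44 genes, 15 rose, against 10.4% of all genes, and 3 fell in the covariate fit, with ISG15 at 1.17. The study named ISG15 from these samples, so the list is not independent evidence of its direction.

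Of 16 interferon-gamma induced genes, 1 was higher and 0 lower at an unadjusted p under 0.05. That gene was SOCS1, a feedback inhibitor of cytokine receptors, with a mean of 0.71 (SE 0.24) and 5 of 6 horses higher, and it rose by 0.87 in the covariate fit. CIITA, the master regulator of MHC class II genes, had a mean of 0.46 (SE 0.29), or 0.15 without horse 1. It did not pass in the covariate fit (0.31, adjusted p = 0.172).

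Of 18 MHC class II presentation genes, 2 were higher and 0 lower at an unadjusted p under 0.05, with a median of 0.26. One of 3 genes named DRB (ENSECAG00000020358), an MHC class II beta chain, was at a lowest value of 10.21, a median of 10.86 and a highest value of 12.35 at T0, and at 10.53, 11.53 and 13.19 at T1. It was higher in each horse, from 0.01 in horse 13 to 0.84 in horse 16 (mean 0.54, SE 0.14), and rose by 0.55 in the covariate fit. The genes named DRB are similar in sequence, so their reads can be shared. With the covariate, 9 of 18 rose, against 10.4% of all genes, and 0 fell.

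For MHC class I loading and the immunoproteasome, 2 of 15 genes were higher and 0 lower at an unadjusted p under 0.05. PSMB10, an immunoproteasome subunit, was higher in 6 of 6 horses, from 0.00 in horse 13 to 0.94 in horse 1 (mean 0.35, SE 0.14). PSMB9, another subunit, had a mean of 0.62 (SE 0.25) with 2.01 in horse 1, -0.28 in horse 13 and a mean of 0.34 without horse 1. Of the 15, 6 rose and 0 fell in the covariate fit, PSMB9 by 0.70, PSMB10 by 0.42 and PSME1, a proteasome activator subunit, by 0.38.

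Chemokine genes went in both directions, with 4 of 20 higher and 1 lower at an unadjusted p under 0.05 and a median of 0.07. CCL2, which attracts monocytes, was at a lowest value of 9.57, a median of 10.53 and a highest value of 11.30 at T0, and at 10.09, 11.13 and 12.24 at T1. It was higher in 5 of 6 horses (mean 0.69, SE 0.20), as was CCL17, a ligand of CCR4 (mean 0.91, SE 0.31). In both genes horse 13 was the exception, at -0.11 and -0.24. CCL26, an eosinophil-attracting eotaxin, was lower in 6 of 6 horses, from -0.11 in horse 8 to -2.32 in horse 1.

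CCL26 was at a lowest value of 3.60, a median of 5.45 and a highest value of 7.60 at T0, and at 3.23, 4.29 and 6.16 at T1 (mean change -0.98, SE 0.31). In the 10 other horses its mean was 0.35 with 5 of 10 higher, and the difference had an unadjusted p of 0.0328 and did not pass adjustment in limma. With the covariate, CCL2 rose by 1.06 and CCL17 by 1.23, while CCL26 was at -0.09 (adjusted p = 0.843). That fit gave 6 chemokines that rose and 1 that fell. The study named CCL2 and CCL17 from these samples, so they are not independent evidence of a direction.

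The early inflammatory genes of NF-kappaB and TNF had 0 of 21 higher and 2 lower at an unadjusted p under 0.05. PTGS2, the inducible cyclooxygenase, was at a lowest value of 12.07, a median of 12.78 and a highest value of 13.34 at T0, and at 11.44, 12.33 and 12.98 at T1. It was lower in 6 of 6 horses, from -0.09 in horse 9 to -0.80 in horse 8, with a mean of -0.44 (SE 0.13). TNF was lower in 6 of 6 horses as well, with a mean of -0.33 (SE 0.12) and -0.02 in horse 9. The list median was 0.04, so these genes did not stand for the list. In that fit of 16 horses, PTGS2 fell by 0.82, TNF fell by 0.72 and CD83, a marker of dendritic cell activation, fell by 0.41, among 6 that fell and 0 that rose.

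Immediate-early genes were split within a single family. EGR2 was at a lowest value of 12.67, a median of 12.87 and a highest value of 13.43 at T0, and at 11.96, 12.40 and 12.75 at T1, lower in 6 of 6 horses (mean -0.56, SE 0.13). EGR3 had a mean of -0.70 (SE 0.21) with horse 1 higher (0.26), whereas EGR1 had a mean of 0.54 (SE 0.19) with 5 of 6 horses higher. All 3 encode zinc finger transcription factors induced within minutes of cell activation. Of the 17 genes of the list, 4 were higher and 3 lower at an unadjusted p under 0.05. When the covariate was fitted, EGR2 fell by 0.35 (in 15 of 16 fits with 1 horse left out) and EGR3 fell by 0.80, and EGR1 was at 0.07 (adjusted p = 0.827).

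Of 13 acute phase and S100 genes, 2 were higher and 0 lower at an unadjusted p under 0.05, and 12 had a mean above 0. SAA1, serum amyloid A, had a mean of 0.66 (SE 0.27), with horses 1, 8, 9 and 10 between 0.76 and 1.72 and horses 13 (-0.37) and 16 (-0.09) lower. S100A6, a calcium-binding protein, had a mean of 0.33 (SE 0.14). LCN2, the lipocalin of neutrophils and epithelium that binds iron carriers, was at 1.57 in horse 10 and at -0.50 in horse 13, and its mean of 0.57 was 0.37 without horse 10. There were 9 of 13 that rose and 0 that fell in the covariate fit.

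Matrix remodelling genes had 4 of 21 higher and 1 lower at an unadjusted p under 0.05, with a median of 0.23. Beside PCOLCE2, TIMP1, an inhibitor of matrix metalloproteinases, was at a lowest value of 9.19, a median of 9.81 and a highest value of 10.79 at T0, and at 9.77, 10.91 and 12.10 at T1. Its mean was 0.99 (SE 0.26), with 2.25 in horse 1 and -0.05 in horse 13. MMP19, a matrix metalloproteinase, was higher in each horse by 0.21 to 0.89 (mean 0.55, SE 0.17). With the covariate, 7 of 21 rose and 1 fell, TIMP1 by 0.92 and MMP19 by 0.53. Of the hypoxia and vascular peptide genes, 2 of 20 were higher and 0 lower at an unadjusted p under 0.05, ADM and the glycolytic enzyme gene ENO1 (mean 0.47, SE 0.21, or 0.30 without horse 1).

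Little change in cilia genes did not mean little change in other epithelial genes. The mean of the airway secretory list (9 genes tested) was higher by 1.47 in horse 10, 1.15 in horse 1 and 1.09 in horse 16, level in horse 9 (0.06) and lower in horses 13 (-0.25) and 8 (-0.37). SCGB1A1 is the club cell secretoglobin, and more than 1 gene carries this symbol. The SCGB1A1 gene described here (ENSECAG00000010662) was at a lowest value of 8.23, a median of 8.96 and a highest value of 10.87 at T0. At T1 it was at 8.66, 10.13 and 11.03 (mean change 0.80, SE 0.23). It did not follow the list: horse 8 had its highest change (1.88), and horse 1 was at -0.05. TFF3, a mucus-associated trefoil peptide, and SPDEF, a transcription factor of goblet cells, had means of 0.91 (SE 0.33) and 0.86 (SE 0.35). Without horse 16 the mean of TFF3 was 0.60, and without horse 1 that of SPDEF was 0.56. Of the 9 secretory genes, 6 rose and 0 fell in the covariate fit, SCGB1A1 by 0.88, TFF3 by 1.06 and SPDEF by 0.69. The call of SPDEF held in 5 of the 16 fits that left out 1 horse, and those of the other 2 in all 16.

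The basal and squamous list (6 genes) was higher by 2.82 in horse 16 and lay between -1.04 and 0.38 in the others. KRT13 and KRT4, keratins of squamous epithelium, were higher by 2.08 and 1.64 in horse 16. Their means of 0.42 and 0.43 were 0.09 and 0.19 without it. The general epithelial list (7 genes) was higher by 1.24 in horse 10 and lay between -0.36 and 0.25 in the others. EPCAM, a general epithelial adhesion molecule, was at -1.54 in horse 1 and at -1.03 in horse 16. It was the only 1 of the 7 with a lower mean (-0.28), and 6 had a higher one. CLDN7 and ELF3, of the same list, were higher by 0.92 and 0.61 in horse 1 and by 0.78 and 0.97 in horse 16. The part of these cells in the gene values above was not tested.

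The neutrophil list (15 genes) had differences from -0.46 in horse 13 to 0.96 in horse 16. Its level lay between 8.71 and 10.07 at T0 and between 9.33 and 10.33 at T1. Horse 10, of the high neutrophil group, had a change of 0.37 and the highest level at T1. RETN, resistin, was the only one of the 15 at an unadjusted p under 0.05 (mean 0.50, SE 0.20). The B and plasma cell list (11 genes tested) was at -2.49 in horse 10 and lay between -0.44 and 0.66 in the others. JCHAIN, the joining chain of secreted IgA and IgM, was lower in 5 of 6 horses (mean -0.99, SE 0.38), with -2.42 in horse 16 and 0.76 in horse 9.

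Mast cell and eosinophil markers were lower in 5 of 6 horses. Their 6 tested genes had a median change of -0.69, and the difference of the list mean was -1.51 in horse 1, -0.997 in horse 16, -0.85 in horse 10, -0.33 in horse 9, -0.31 in horse 13 and 0.25 in horse 8. Of the 6 genes, 3 were lower at an unadjusted p under 0.05: GATA2, a transcription factor of mast cells, at -0.77 (SE 0.25), MS4A2, the beta chain of the IgE receptor, at -0.81 (SE 0.32), and KIT, the stem cell factor receptor, at -0.55 (SE 0.18). MS4A2 fell by 0.52 in the covariate fit, one of 2 that fell (in 11 of 16 fits with 1 horse left out), and GATA2 (adjusted p = 0.106) and KIT (adjusted p = 0.136) did not pass. Of the 18 macrophage markers, 12 were higher and 6 lower on average, with a median of 0.06. CD68 was higher in 5 of 6 horses (mean 0.43, SE 0.19), and the macrophage scavenger receptor gene MSR1 was at -0.34 (SE 0.15). FABP4, a fatty acid binding protein of macrophages, was lower in 6 of 6 horses, at -2.05 in horse 10 and at -0.21 to -0.45 in the others. Without horse 10 its mean was -0.35 in place of -0.63.

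The erythroid list held 3 tested genes, whose mean differed by -0.64 (horse 10) to 0.31 (horse 13). The natural killer and cytotoxic list (12 genes) had a mean change of 0.05 (SD 0.47), with PRF1, perforin, at 0.58 (SE 0.29), with 1.88 in horse 1 and a mean of 0.32 without it.

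**Figure D4:**
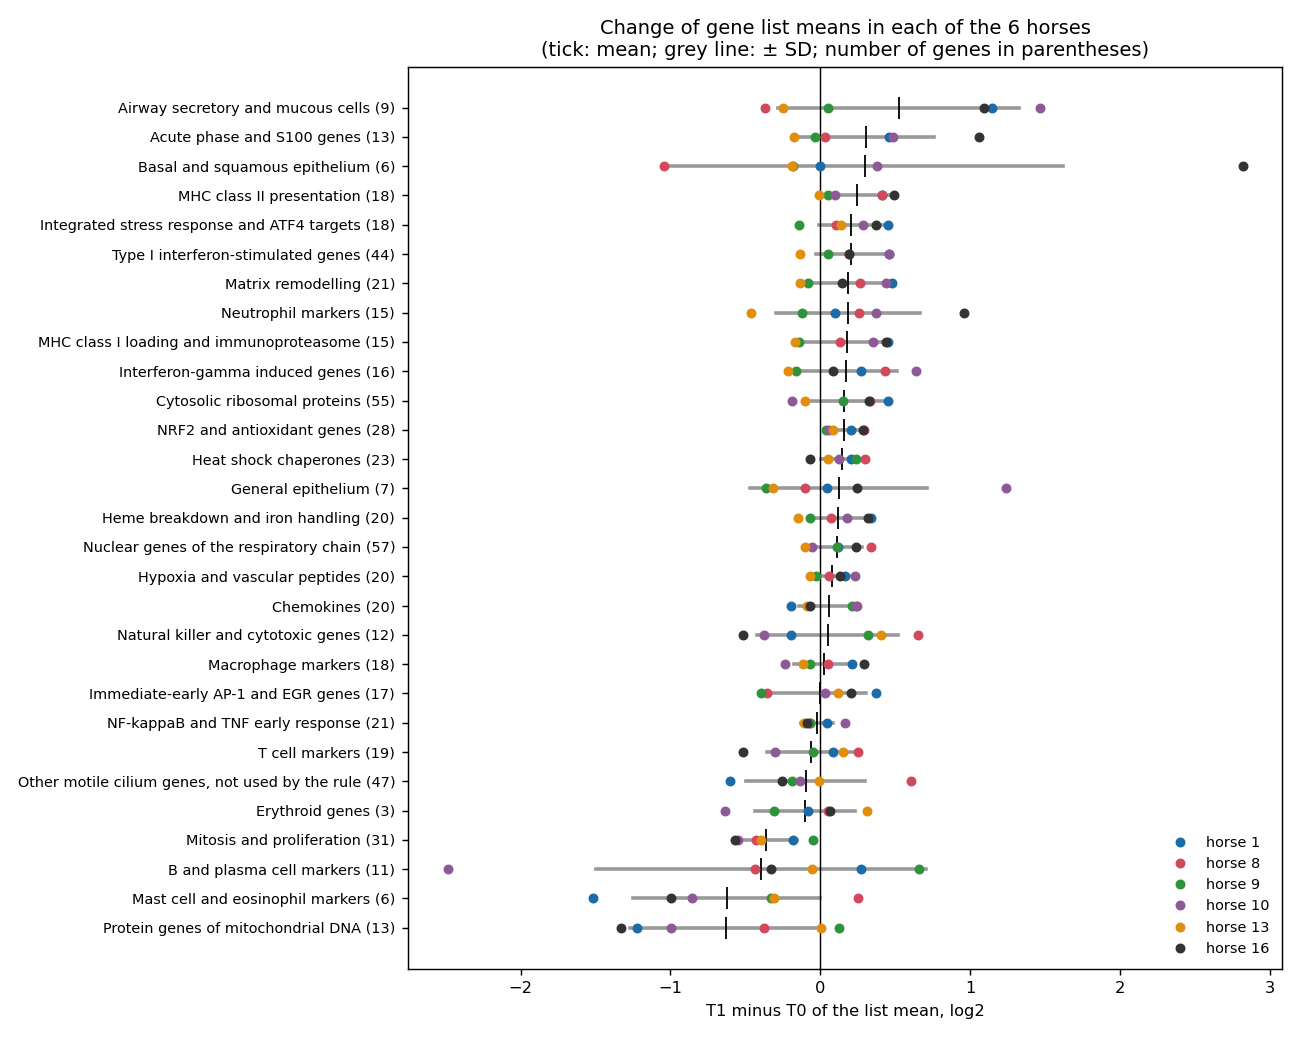
T1 minus T0 change in log2 units of the mean of each gene list, with 1 coloured point per horse, a tick at the mean of the 6 horses and a grey line for ± SD. The mitosis points all lie below 0 (-0.57 to -0.05) and the NRF2 points all above 0 (0.04 to 0.29), whereas the basal and squamous list is spread from -1.04 to 2.82.

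Set side by side, the estimates of the 6 horses and of the 10 others were close for PCOLCE2 (1.12 and 1.32), HSPA6 (0.81 and 0.87), SCGB1A1 (0.80 and 0.85), RPS28 (0.70 and 0.83), TIMP1 (0.99 and 0.95), DRB (0.54 and 0.52) and HDAC9 (-0.77 and -0.85). These genes were not picked by a set rule, and other leading increases were less close. TMEM238 was at 1.31 and 0.77, CYP1B1 at 0.97 and 0.48, FAIM2 at 0.92 and 0.22, and ALDH3A1 at 0.92 and 0.39. The unadjusted p of the difference for these increases ran from 0.177 (ALDH3A1) to 0.405 (CYP1B1) in limma, so none was shown to differ. For PTGS2 (-0.44 and -0.97), TNF (-0.33 and -0.89), MKI67 (-0.65 and -1.20) and CCL2 (0.69 and 1.31) the 6 horses had the smaller value. The unadjusted p of the difference was 0.167, 0.115, 0.281 and 0.172 for these 4 genes in limma, so none was shown to differ. UBASH3B, MT-ND3, ND1, JCHAIN and CCL26, set out because their values differ, had means between -1.59 and -0.83 in the 6 horses and between 0.02 and 0.35 in the 10. The unadjusted p of their difference ran from 0.00369 (UBASH3B) to 0.0328 (CCL26), with 0.0172 for JCHAIN, and the adjusted p was 0.9999 for each in limma, so none of these was shown to differ either.

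**Figure D5:**
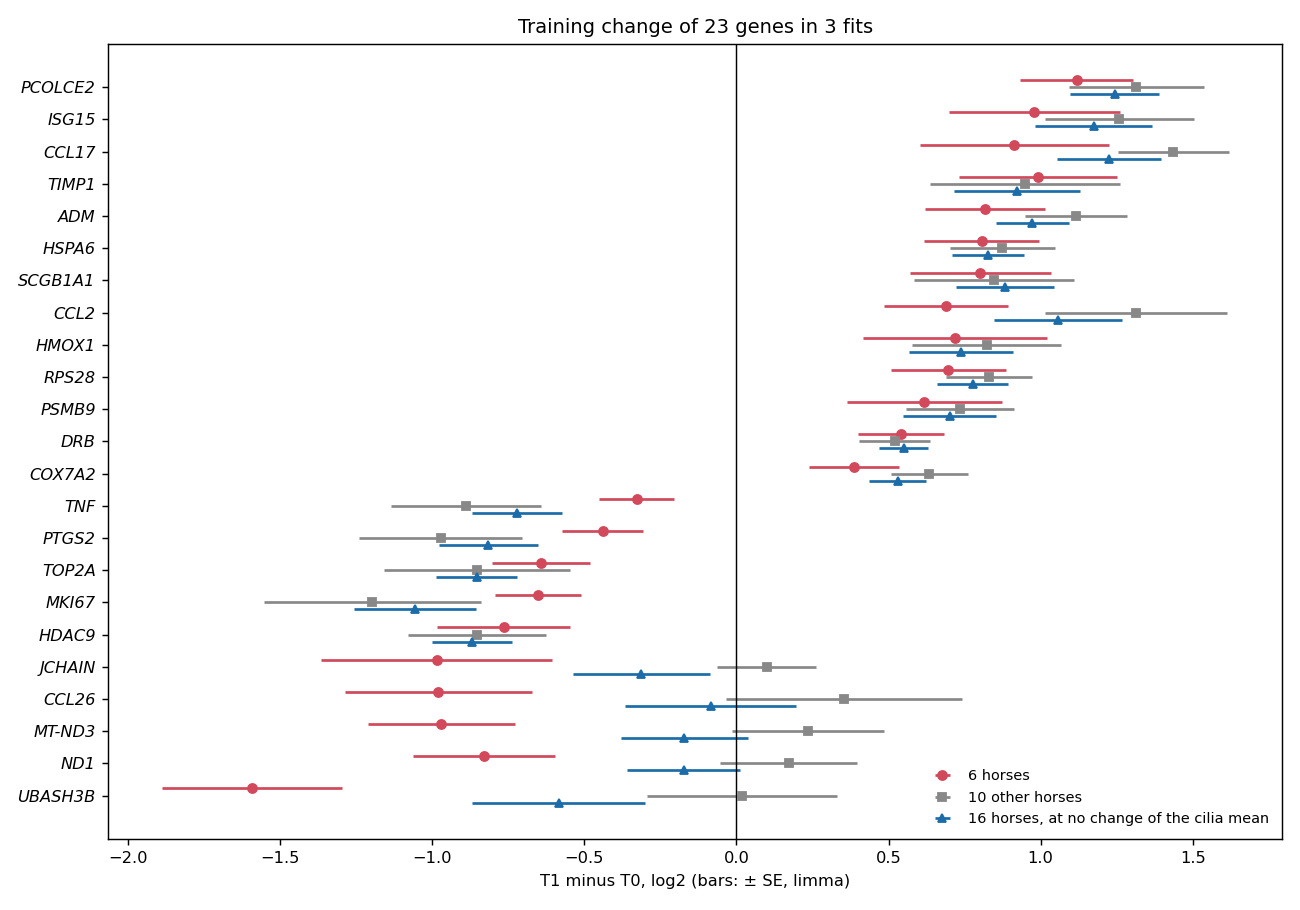
T1 minus T0 change in log2 units of 23 genes, with bars of ± SE, in the 6 horses, in the 10 other horses and in all 16 horses at no change of the cilia mean. The 3 estimates lie on the same side of 0 from PCOLCE2 to HDAC9, and in the last 5 genes the 6 horses lie between -1.59 and -0.83 while the 10 others lie between 0.02 and 0.35.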

How the data were processed

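The series holds 32 RNA libraries of TW cells, from 16 horses at T0 and T1. Per the submitters' processing notes, the authors used cutadapt, FastQC, MultiQC, kallisto 0.46.0.1 and EquCab3.0, and the study names DESeq2 for its own tests. The deposited table, although titled as raw counts, holds log2 values of 21357 genes that the authors adjusted. The step that made them is not given in the sources used here, so how it treats low values is unknown. Genes at 0 in every library (1899) were left out. Of the genes, 5510 have no symbol. No coordinates or sequences were used.

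Libraries were assigned to horses by their titles, and the members and gene lists (30) were chosen with earlier results of these data known. T1 minus T0 was tested with limma 3.58.1 in R 4.3.3 (moderated, with mean-variance trend) on genes whose mean log2 value reached 3, with the horse as replicate block. The samples are paired because both come from the same animal, and the deviations of paired libraries from their group means correlated by 0.225 to 0.775 in the 6 horses. Benjamini-Hochberg adjustment ran over all tested genes (FDR 0.05). Named genes were the 6 cilia genes, the 12 largest increases and 12 largest decreases with a symbol, a mean log2 value reaching 5 and 1 direction in 6 of 6 horses, and up to 3 genes of the smallest p per list. Code was tested on simulated data. Alternatives covered the filter, the block, left-out horses, other numbers of horses, scaling, limma settings and covariates. The fits with a neutrophil or T cell covariate, and the fits of the cilia covariate without single horses or without the 6, were chosen after seeing the data. Depth per library is unknown, so no interval that needs counts is given. Plots were made in Python 3.11.15 (matplotlib 3.10.9).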

Additional observations from a re-analysis of the deposited data

Results flagged for a closer look

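Of 141 sets of 6 changes that were checked (111 genes and 30 list means), 6 held 1 horse far from the other 5. Chance alone gives about 1 in 20 such sets. Horse 1 stood apart for ISLR2 (2.49, others 0.20 to 0.82), BAG3 (1.56, others 0.28 to 0.67) and RPS28 (1.76, others 0.30 to 0.60). Horse 10 stood apart for FABP4 (-2.05, others -0.45 to -0.21) and for the mean of the B and plasma cell markers (-2.49, others -0.44 to 0.66). Horse 16 stood apart for the mean of the basal and squamous epithelium list (2.82, others -1.04 to 0.38). Genes and lists share these libraries and are not independent.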

How the results depend on the processing

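In the 6 horses the count at FDR 0.05 was 0 under every planned setting that used 5 to 8 horses. The count at an unadjusted p under 0.05, 954 as reported, was 306 with no replicate block and 565 with the 5 horses of smallest cilia change, and leaving out 1 horse gave 358 to 2430. The 16 horses gave 930 genes at FDR 0.05 (4169 unadjusted) without and 2904 (5557 unadjusted) with the cilia covariate. In the 10 other horses, leaving out 1 gave 0 to 1 genes at FDR 0.05 (1 without horse 11). The difference between the sets of horses gave 78 to 502 genes at an unadjusted p under 0.05 with 1 horse left out. The covariate fit gave 1513 to 3764 genes with 1 horse left out, 1355 without the 6 horses, 0 with the neutrophil change as the only covariate (847 unadjusted) and 1 with both covariates (1864 unadjusted). The cause of these differences was not tested. With no replicate block the 10 other horses and the difference between sets kept 0 genes at FDR 0.05.

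Of 111 named genes, 7 changed sign under the planned settings. With both covariates, EGR1 (-0.10) and CD4 (-0.18) did so too. FOXJ1 was at -0.11 with 8 horses, and at -0.048 to 0.35 with 1 horse left out. DNAI1 was at -0.27 with 8 horses and -0.066 with 16, and at -0.065 to 0.12 with 1 left out (-0.013 without horse 8). RSPH1 was at 0.044 with 5 horses and 0.0010 with the covariate, and at -0.41 to 0.044 with 1 left out. TEKT1 was at -0.077 with 8 horses. EPCAM was at 0.00084 with 16 horses and 0.19 with the covariate. HBA was at -0.024 with 5 horses and -0.090 with 8, and at -0.024 to 0.33 with 1 left out. KLF1 was at 0.16 with 5 horses, 0.065 with 8, 0.017 with libraries shifted to 1 median, 0.18 with 16 and 0.20 with the covariate, and at -0.16 to 0.16 with 1 left out. The 6 pairs limit what can pass, since the SE per gene was close to the size of the usual change, and the depth behind each value is unknown.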
